A study of Mus musculus with 12 samples.

Results

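The transcripts described here come from the mitochondrial genome and were taken as every gene that the deposited count table places on chromosome MT, 37 of its 54532 genes. By the table's own gene classes, 13 of them encode proteins, 2 encode ribosomal RNAs and 22 encode transfer RNAs. They were measured in dorsal root ganglia (DRGs), the clusters of sensory neurons and their glia beside the spinal cord, in 6 control and 6 DAAO libraries from C57BL/6 mice. Control mice had the genotype CDH5-Cre, a Cre recombinase driven by the endothelial promoter of Cdh5, and DAAO mice the genotype DAAO-TGCdh5; the titles of both groups carry Cdh5_Cre. DAAO is D-amino acid oxidase, an enzyme that makes hydrogen peroxide from D-amino acids, and both groups were given D-Alanine, its substrate, so the groups differ in the transgene and share the substrate. The labels give no age, and do not say whether a library is 1 animal or a pool, so the p-values measure the spread between these libraries. The ganglion holds many cell types besides the endothelium named by the promoter, and in bulk tissue fewer cells of a type and less RNA per cell cannot be told apart.

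The mitochondrial genome is transcribed from both strands as long precursors, from which the transfer RNAs are cut out and thereby release the messenger and ribosomal RNAs that lie between them. Its proteins are core subunits of respiratory complexes I, III and IV and of ATP synthase (complex V), and they are made inside the organelle with its own ribosomal and transfer RNAs. All other subunits, and the enzymes that copy, transcribe and process mitochondrial DNA and RNA, are encoded in the nucleus, and sensory neurons with long axons rely heavily on this system for ATP.

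Pieces of mitochondrial DNA also lie in the nuclear genome, and 1 such piece bears on which of these genes can be measured. On chromosome 1 of GRCm38, 7 pseudogenes lie side by side on the minus strand at chr1:24611535-24616197, a stretch of 4663 bases that matches bases 6390 to 11042 of the mitochondrial genome at 99% identity or more in every annotated copy. The sequences below, from the GENCODE M21 transcripts of GRCm38 and read 5′ to 3′ in the direction of the mitochondrial gene, show how alike the copies are: the first 60 bases of mt-Co2 and of its copy Gm28661, bases 1063 to 1103 of mt-Co1 with its copy Gm29216, and bases 1 to 41 of mt-Nd3 with its copy Gm28438. Capitals mark the only base that differs over the aligned length of each of the last 2 pairs, A1066T in mt-Co1 and T3C in mt-Nd3, with the mitochondrial base first and positions counted from 1 at the first base of the gene; mt-Co2 and its copy do not differ. The last line is mt-Tp, the transfer RNA gene with the most counts, which lies outside the matched stretch. At 67 bases it is shorter than the 100 aligned bases required of a copy, so the search could not find one.
mt-Co2: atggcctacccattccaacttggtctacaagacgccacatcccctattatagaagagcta
Gm28661: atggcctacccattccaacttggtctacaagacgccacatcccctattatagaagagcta
mt-Co1: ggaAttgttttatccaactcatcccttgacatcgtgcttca
Gm29216: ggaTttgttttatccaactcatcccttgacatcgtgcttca
mt-Nd3: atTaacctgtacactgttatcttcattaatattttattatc
Gm28438: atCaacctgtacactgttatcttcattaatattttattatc
mt-Tp: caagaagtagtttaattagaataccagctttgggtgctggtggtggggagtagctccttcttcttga

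The libraries held 13227518 to 23884927 counts, of which 535105 to 1418066 were in mitochondrial genes. At this depth the Wilson 95% interval of a library's mitochondrial share was at most 0.0143 percentage points to either side, which covers counting error only. Of the 37 genes, 36 had at least 1 count and mt-Tf, the transfer RNA gene for phenylalanine, had 0 in every library. The filter on low counts left 26 for testing: 12 protein genes, both ribosomal RNA genes and 12 transfer RNA genes. Markers of sensory neurons were present in every library, at a summed level of 6050 to 11074 normalised CPM (read counts put on one library size) in controls and 6541 to 9852 in DAAO. Markers of skeletal muscle ran from 17.4 to 3119 in controls and from 6.86 to 507 in DAAO, and those of spinal cord oligodendrocytes from 44.3 to 2415 and from 122 to 687, and no list of markers held a gene at 0 in every library. Macrophage markers ran from 31.9 to 231 in controls and from 93.3 to 344 in DAAO, and Schwann cell markers from 5227 to 8972 and from 3705 to 5687. By edgeR 3 of 6 macrophage and 7 of 8 Schwann cell markers had an unadjusted p under 0.05, against 10.3% of all genes, and 0 were called. In DAAO 5 of 6 macrophage markers were higher and 6 of 8 Schwann cell markers lower.

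Mitochondrial genes took 5.50% ± 1.61 of all counts in controls and 4.27% ± 0.743 in DAAO (SD, n = 6 each). The controls, in the order of their numbers, were at 4.72%, 7.44%, 4.36%, 4.05%, 4.78% and 7.65%, and the DAAO libraries at 5.13%, 3.91%, 5.03%, 4.55%, 3.71% and 3.32%. Controls 2 and 6 stood above every other library. The DAAO libraries spread above, within and below the range of the other controls. The groups overlapped, with 4 of 6 DAAO libraries below the control median. The difference was −1.23 percentage points with all libraries and −0.205 without controls 2 and 6, which left the controls at 4.48% ± 0.338. Without control 2 alone it was −0.839, and without control 6 alone −0.798. As these controls were picked for their high shares, leaving them out could only lower the control mean, and no pair of DAAO libraries was left out to match. The difference between the group means was smaller than the SD among the controls, and no test was made on these sums.

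The 2 control libraries with high shares differed from each other in what else they held. Control 2 had the highest summed levels of markers of oligodendrocytes (2415 CPM), astrocytes of the spinal cord (404 CPM), red blood cells (524 CPM) and Schwann cells (8972 CPM), and the lowest of sensory neuron markers (6050 CPM). It also had the highest adipocyte markers, at a low level of 13.6 CPM, with DAAO 3 next at 3.65 CPM. Control 6 had the highest sensory neuron markers (11074 CPM), and its skeletal muscle markers were near the low end, at 17.4 CPM. The part of these cell types in the mitochondrial share was not tested.

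**Figure D1:**
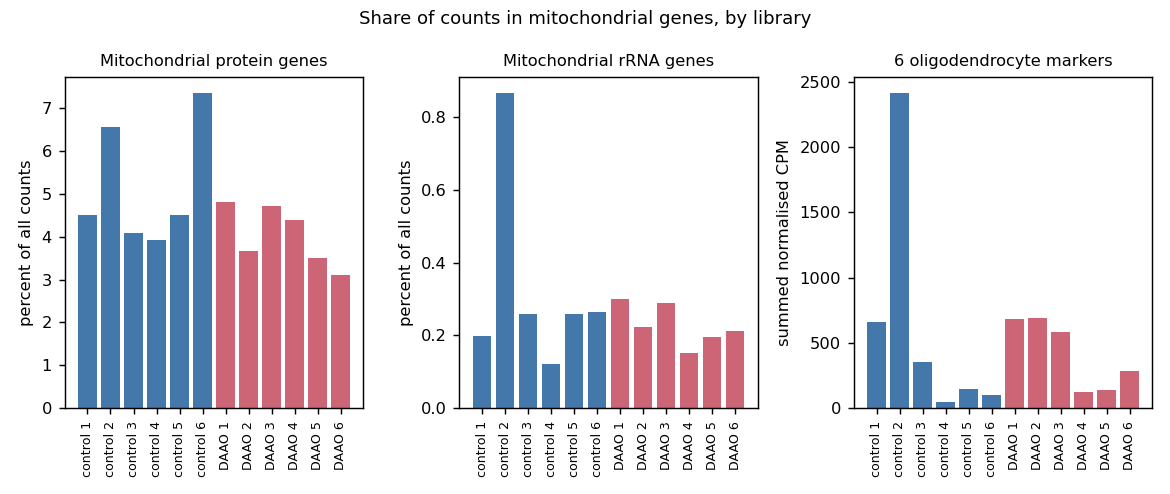
Percent of all counts in the 13 mitochondrial protein genes (left) and the 2 mitochondrial ribosomal RNA genes (middle), and the summed level in CPM of 6 oligodendrocyte markers (right), with 1 bar per library (control blue, DAAO red). Controls 2 and 6 stand highest for protein genes, at 6.56% and 7.36%, whereas for ribosomal RNA control 2 alone stands apart, at 0.868%.

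Protein genes held 94.0% of the mitochondrial counts, ribosomal RNA genes 5.76% and transfer RNA genes 0.272%. A group of 6 protein genes held 90.3%: mt-Co1, mt-Cytb, mt-Nd1, mt-Nd4, mt-Nd5 and mt-Nd2. Levels between genes are compared here as CPM per kb of gene, averaged over the 12 libraries. mt-Co1 and mt-Nd4 lie partly in the copied stretch described above, so their levels per kb and their places in the order are uncertain. mt-Co1, the catalytic subunit of complex IV, was highest at 11753 ± 3203 CPM per kb (SD, n = 12), followed by mt-Cytb, the cytochrome b of complex III, at 6905 ± 2202 and mt-Nd1 of complex I at 6097 ± 2042. Next came mt-Nd4 at 3545 ± 1061 and mt-Nd2 at 3544 ± 1191, a pair whose order was split evenly, mt-Nd4 being higher in 6 of 12 libraries. mt-Nd6, the only protein gene on the opposite strand, followed at 2937 ± 1130 CPM per kb and mt-Nd5 at 2201 ± 637. The ribosomal RNA genes mt-Rnr1 (12S) and mt-Rnr2 (16S) stood below these at 1180 ± 871 and 1060 ± 740 CPM per kb, although ribosomal RNA is the more abundant class in cells. Which RNA was selected for the libraries is not known from the labels.

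The protein genes that lie inside the stretch copied on chromosome 1 were all far below those outside it. mt-Co2 reached 171 ± 67.1 CPM per kb, mt-Co3 112 ± 50.7, mt-Nd3 86.6 ± 40.3, mt-Atp6 64.0 ± 17.1, mt-Nd4l 29.4 ± 7.11 and mt-Atp8 2.84 ± 1.42. These 6 genes, which include subunits II and III of complex IV and both mitochondrial subunits of ATP synthase, summed to 61481 counts over the 12 libraries, 0.614% of the counts in protein genes. The 5 protein genes wholly outside the stretch ran from 2201 to 6905 CPM per kb and the 2 that lie partly in it, mt-Co1 and mt-Nd4, from 3545 to 11753. The pattern held in both groups and every library, the highest value of any gene inside the stretch being 314 CPM per kb and the lowest of any protein gene outside it 1330. Of the transfer RNA genes, the 5 inside the stretch (mt-Ts1, mt-Td, mt-Tk, mt-Tg and mt-Tr) summed to 470 counts, 1.62% of the counts in transfer RNA genes. They were not set apart as the protein genes were. mt-Ts1, mt-Td and mt-Tk had 1 count each, but mt-Tg (285) and mt-Tr (182) had more than several genes outside, among them mt-Tf (0), mt-Tv (6) and mt-Tq (90). Most transfer RNA counts were in mt-Tp (17540) and mt-Tc (4671).

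**Figure D2:**
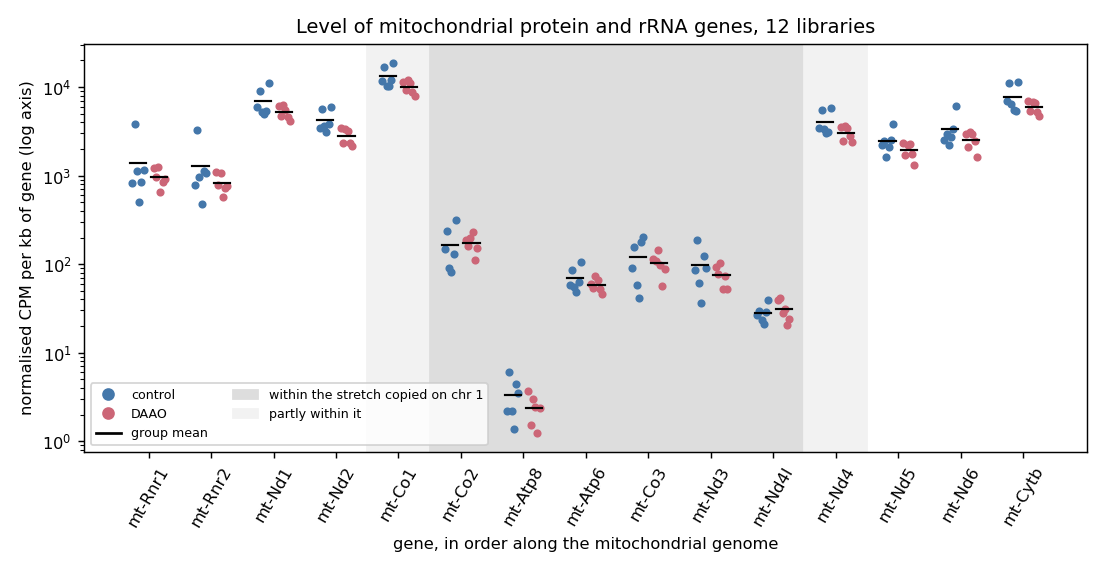
Level of each mitochondrial protein and ribosomal RNA gene in CPM per kb (log axis), in genome order, with 1 point per library and the mean of each group as a black line; shading marks genes within, or partly within, the stretch copied on chromosome 1. The 6 genes in the dark band lie between 2.84 and 171 CPM per kb on average, and the protein genes without shading between 2201 and 6905.

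The copies carried counts of their own. Gm28661, identical to mt-Co2 over 681 bases, had 22805 counts in all against 24770 for mt-Co2, and Gm10925, identical to mt-Atp6 over 678 bases, had 10054 against 9437. Gm28437, identical to mt-Co3 over 783 bases, had 7444 against 18632, Gm10222 had 842 against 1899 for mt-Nd4l, and Gm28438 had 665 against 6618 for mt-Nd3. For mt-Co2 and mt-Atp6 the copy thus held about as many counts as the gene, 92.1% and 107% of it. In mt-Co2, mt-Atp6 and mt-Co3, 99.4%, 99.4% and 99.8% of all windows of 150 bases, the read length in the labels, also occurred in a nuclear transcript, and in mt-Nd3 and mt-Nd4l 97.0% and 98.0% did. mt-Nd4 shared 59.2% of its windows and mt-Co1 23.6%, and the other protein and ribosomal RNA genes shared 0. In mt-Co1 and mt-Nd4 the copies Gm29216 (3756 counts) and Gm28439 (3698 counts) held 0.0953% and 0.349% of the gene's counts.

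Less similar copies on chromosome 2 held a small part of the gene's counts, as did Gm29216 and Gm28439 above. Gm13340 on chromosome 2, 97.6% identical to the whole of mt-Co1, had 1042 counts, 0.0264% of those of mt-Co1, and Gm13339, 96.7% identical to the second part of mt-Nd2, had 115, or 0.0145% of those of mt-Nd2. mt-Atp8 shared 0 windows. Of the annotated copies in the stretch only Gm10925 reaches it, over the 43 bases that mt-Atp8 has in common with mt-Atp6, fewer than a window holds. Yet mt-Atp8 was the lowest protein gene, with 125 counts in 12 libraries. No genome sequence was used here to look between the annotated copies. The sources used here do not say how reads that match several places were counted, and the part of that choice in these levels was not tested. The levels of the 6 protein genes inside the stretch, and of their copies, are therefore uncertain. The same holds for mt-Nd4 and mt-Co1, which shared 59.2% and 23.6% of their windows.

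Between the groups, no mitochondrial gene passed the test. With edgeR's quasi-likelihood test over 17002 genes, 128 genes were called at an adjusted p under 0.05 (0.753%; 0.506% higher and 0.247% lower in DAAO), and 0 of the 26 members were among them, as with limma-voom, while DESeq2 called 1, mt-Nd2. At an unadjusted p under 0.05 there were 5 of 26, against 10.3% of all genes: mt-Nd2, mt-Co1, mt-Te, mt-Tp and mt-Ts2. Of the 26, 22 had a negative log2 fold change (DAAO minus control), against 49.6% of all genes, and the median was −0.40 against 0.00. In CPM no member had groups that did not overlap, against 1.45% of all genes. Without controls 2 and 6, picked after their high mitochondrial shares were seen, 15 of 26 had a negative value and the median was −0.02. Without control 2 alone 21 of 26 were negative (median −0.28), and without control 6 alone 20 of 26 (median −0.24).

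**Figure D3:**
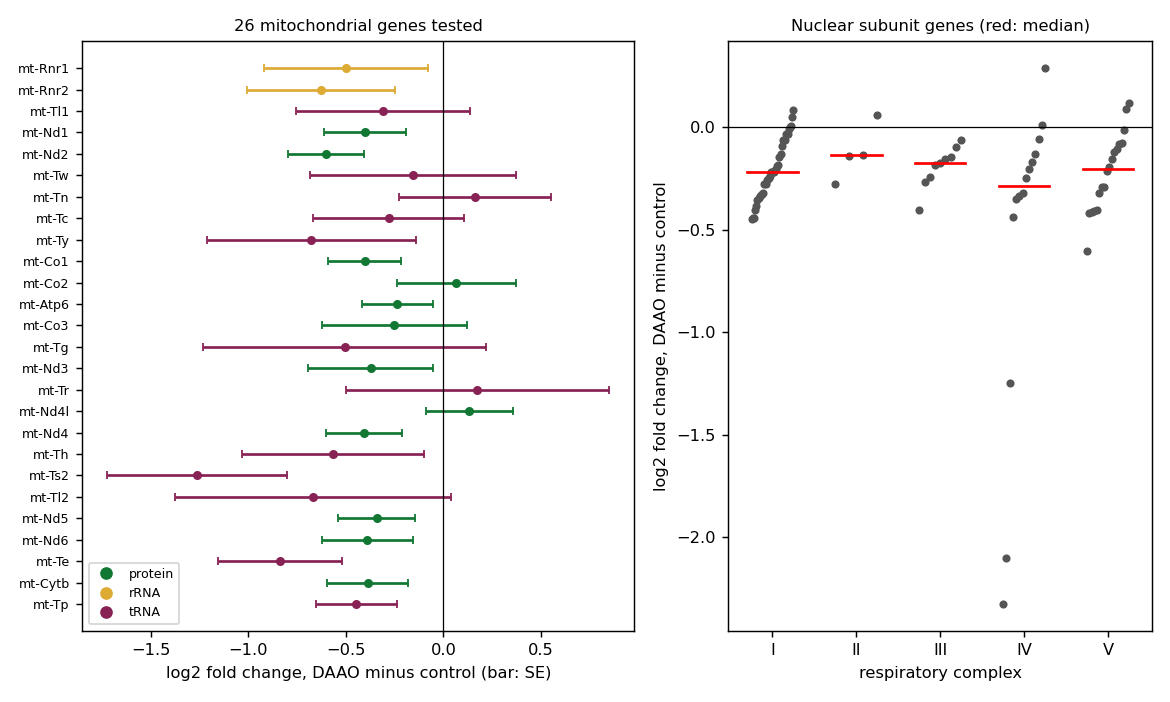
Log2 fold change (DAAO minus control) of the 26 tested mitochondrial genes with its SE, coloured by gene class (left), and of the nuclear subunit genes of respiratory complexes I to V, with 1 point per gene and the median in red (right). Most points of both panels lie below 0, and 0 genes in either panel passed the test.

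The genes of one genome shared the swings of their library. Taking the log2 level of each of the 7 protein genes above 500 CPM per kb as its deviation from that gene's mean over the libraries, all 7 were above 0 in control 2 (mean 0.52, from 0.08 to 0.76) and in control 6 (mean 0.86, from 0.73 to 1.14). All 7 were below 0 in control 4 and in DAAO 2, 5 and 6, where the means were −0.14, −0.37, −0.33 and −0.60. DAAO 1 and 3 had all 7 slightly above 0, at means of 0.07 and 0.08. The 26 members are therefore not independent measurements of a difference between groups.

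Complex I, which takes electrons from NADH, has 7 subunits encoded here. mt-Nd2, at bases 3914 to 4951 of the mitochondrial genome, had the smallest p of all members. Its level was 3189 CPM at the lowest, 3886 at the median and 6238 at the highest in controls, and 2228, 2894 and 3598 in DAAO. All 6 DAAO libraries were below the control median, but the upper DAAO libraries, 1, 3 and 4, overlapped the lower controls. The log2 fold change was −0.60 ± 0.19 (SE), with an unadjusted p of 0.00682 and an adjusted p of 0.225 by edgeR. DESeq2 gave −0.61 with an adjusted p of 0.0495, the only call for a mitochondrial gene among the 24 fits, and without controls 2 and 6 the log2 fold change was −0.31 (edgeR, adjusted p = 0.281).

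The other complex I genes had smaller differences that were within the spread between libraries. mt-Nd1 was at 4764, 5382 and 10728 CPM (lowest, median, highest) in controls and 3915, 4930 and 6077 in DAAO, with a log2 fold change of −0.40 ± 0.21 (edgeR, adjusted p = 0.542). mt-Nd4 was at 4153, 4709 and 7985 CPM in controls and 3271, 4316 and 4982 in DAAO (−0.41 ± 0.20, adjusted p = 0.496 by edgeR). In both genes the highest controls, 2 and 6, lay above all other libraries and the rest of the groups overlapped. mt-Nd5 had −0.34 ± 0.20 and mt-Nd6 −0.39 ± 0.23 (edgeR, adjusted p = 0.600 and 0.616). These last genes overlap by 14 bases on opposite strands, and as no source used here says whether strand was counted, their reads in that overlap cannot be told apart.

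Of the complex I genes with a copy on chromosome 1, mt-Nd3 had 34.0 ± 18.5 CPM in controls and 26.3 ± 7.45 in DAAO, and mt-Nd4l 8.35 ± 1.85 and 9.14 ± 2.45 (SD, n = 6). Their log2 fold changes were −0.37 ± 0.32 and 0.13 ± 0.22, with adjusted p = 0.782 and 0.913 by edgeR. mt-Nd4l was thus 1 of only 2 protein genes with a positive value, the other being mt-Co2, and both lie in the copied stretch.

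mt-Cytb, the single complex III subunit made in mitochondria, was at 6095, 7719 and 12999 CPM (lowest, median, highest) in controls and 5398, 6889 and 8026 in DAAO. The groups overlapped, with 4 of 6 DAAO libraries below the control median. Its log2 fold change was −0.39 ± 0.21 (edgeR, adjusted p = 0.561).

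In complex IV, the cytochrome c oxidase, mt-Co1 was at 16009, 18305 and 29312 CPM (lowest, median, highest) in controls and 12109, 15688 and 18744 in DAAO. Controls 2 and 6 were above every DAAO library, and 5 of 6 DAAO libraries were below the control median. The log2 fold change was −0.40 ± 0.19, with an unadjusted p of 0.0472 and an adjusted p of 0.477 by edgeR. mt-Co2, which carries the copper site that receives electrons from cytochrome c, was at 56.0, 96.0 and 215 CPM in controls and 76.8, 120 and 160 in DAAO, with a log2 fold change of 0.07 ± 0.30 (edgeR, adjusted p = 0.977). Adding the counts of the nuclear copy to those of mt-Co2 turned this value to −0.05 and gave no call. mt-Co3 was at 32.3, 96.9 and 161 CPM in controls and 44.4, 81.5 and 114 in DAAO, with the DAAO libraries inside the range of the controls (−0.25 ± 0.37, edgeR, adjusted p = 0.903).

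Of the ATP synthase subunits, mt-Atp6, part of the proton channel, was at 33.1, 41.2 and 72.1 CPM (lowest, median, highest) in controls and 31.7, 38.4 and 50.3 in DAAO (−0.24 ± 0.18, edgeR, adjusted p = 0.739). mt-Atp8 was not tested, since its 125 counts did not pass the filter. Its mean was 0.674 CPM in controls and 0.486 in DAAO, and it overlaps mt-Atp6 by 43 bases on the same strand, so reads there belong to both.

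The ribosomal RNA genes varied more among the controls than any tested protein gene did. mt-Rnr1, the RNA of the small mitochondrial ribosomal subunit, was at 786, 3677, 1068, 475, 814 and 1102 CPM in controls 1 to 6 and at 1175, 916, 1198, 631, 805 and 878 in DAAO 1 to 6. Control 2 was over 3 times any other library, and the remaining controls and the DAAO libraries covered the same range. The log2 fold change of −0.50 ± 0.42 (edgeR, adjusted p = 0.774) turned to 0.14 without control 2 and to 0.25 without controls 2 and 6. mt-Rnr2, the RNA of the large subunit, was at 1227, 5239, 1530, 749, 1765 and 1698 CPM in controls 1 to 6 and at 1724, 1237, 1693, 900, 1161 and 1198 in DAAO 1 to 6. Control 2 again stood alone, and the log2 fold change of −0.63 ± 0.38 (edgeR, adjusted p = 0.631) was −0.07 without it. The coefficient of variation over the controls was 89.1% for mt-Rnr1 and 79.3% for mt-Rnr2, against 23.5% and 24.6% over the DAAO libraries. Control 2 was also the library with the highest oligodendrocyte markers, whose part in this was not tested.

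Ratios of genes within a library need no scaling, and 3 were compared, each with an exact permutation test over samples (two-sided, 924 arrangements), with Benjamini-Hochberg adjustment over the 3. The ratio of mt-Rnr2 to mt-Rnr1, neighbours on one precursor, was 0.68 ± 0.22 on the log2 scale in controls and 0.50 ± 0.05 in DAAO (SD, n = 6). The values were 0.64, 0.51, 0.52, 0.66, 1.12 and 0.62 in controls 1 to 6 and 0.55, 0.43, 0.50, 0.51, 0.53 and 0.45 in DAAO 1 to 6. Control 5 was the highest by far, controls 2 and 3 were at the level of the DAAO libraries, and the difference of −0.18 ± 0.09 (SE) had an exact permutation p of 0.0216, which was 0.0649 after adjustment. Without control 2 the difference was −0.22 with an adjusted exact permutation p of 0.0390, so the call depends on that library.

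The ratio of mt-Rnr2 to mt-Nd1 spans mt-Tl1, the transfer RNA gene for leucine that holds a binding site of the transcription termination factor Mterf1a, and so sets the ribosomal against the messenger part of the precursor. It was −1.91 ± 0.75 on the log2 scale in controls and −1.95 ± 0.31 in DAAO, a difference of −0.03 ± 0.33 (SE; exact permutation p = 0.935, adjusted p = 0.981). The ratio of mt-Nd6 to mt-Cytb, from opposite strands, was −2.39 ± 0.48 in controls and −2.40 ± 0.17 in DAAO, a difference of −0.01 ± 0.21 (SE; exact permutation p = 0.981, adjusted p = 0.981). In both of these ratios the DAAO libraries lay within the range of the controls. As no source used here says whether strand was counted, the reads on mt-Nd6 may come from either strand. The smallest p that this design allows is 0.00216.

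**Figure D4:**
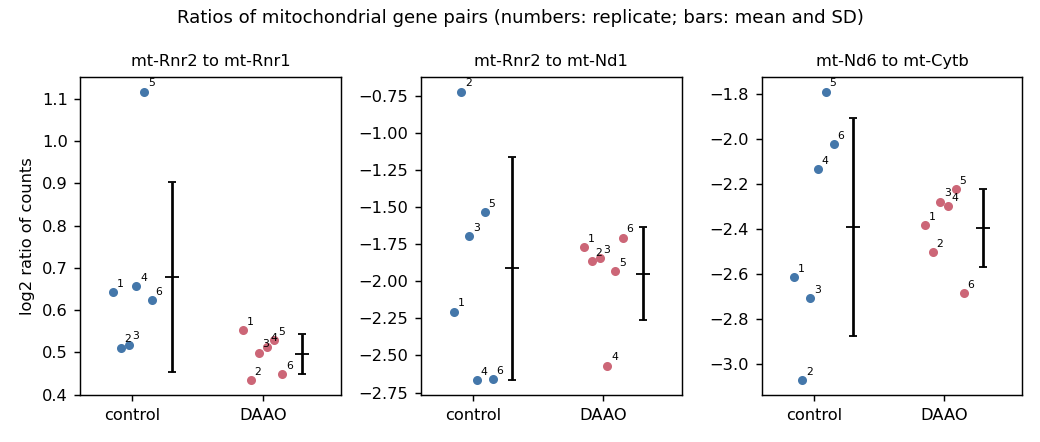
Log2 ratio of counts of 3 pairs of mitochondrial genes, with 1 point per library numbered by replicate and the mean and SD of each group (n = 6) as black bars; the axes do not start at 0. The controls spread more widely than the DAAO libraries in all 3 panels, from 0.51 to 1.12 against 0.43 to 0.55 in the first.

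Within the mitochondrial counts of each library, the abundant messengers kept nearly the same proportions in both groups, apart from mt-Nd2. mt-Co1 took 37.1% ± 1.92 of the mitochondrial counts in controls and 37.1% ± 0.596 in DAAO (SD, n = 6), and mt-Nd1 11.7% ± 0.862 and 11.9% ± 0.147. mt-Nd2 took 7.93% ± 0.448 in controls and 6.90% ± 0.374 in DAAO. Its share was 7.55%, 7.59%, 8.61%, 7.75%, 8.37% and 7.70% in controls 1 to 6 and 7.29%, 6.41%, 7.02%, 7.31%, 6.55% and 6.84% in DAAO 1 to 6. Every DAAO library was below every control, controls 2 and 6 included, and the counting error of a library's share was at most 0.0676 percentage points to either side (Wilson 95% interval). This share was singled out after its values were seen and was not tested. It was the only 1 of the 26 tested members whose shares did not overlap between groups, 3.85% of them, against 2.56% of all 17002 genes when counted relative to the mitochondrial total, so the count itself is near the background. Taken relative to the 5 protein genes outside the copied stretch, mt-Nd2 was at 17.1% ± 1.31 in controls and 14.8% ± 0.666 in DAAO, again without overlap, whereas relative to mt-Nd1 alone it was at 68.4% ± 7.60 and 57.9% ± 3.55 and the groups overlapped.

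**Figure D5:**
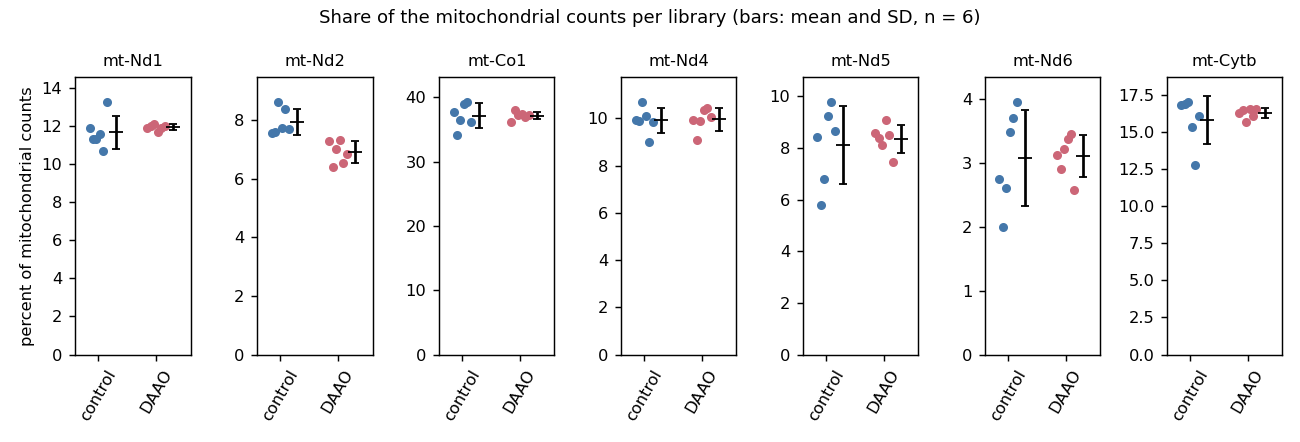
Share of the mitochondrial counts of a library taken by each of 7 abundant protein genes, in percent, with 1 point per library and the mean and SD of each group (n = 6) as black bars; each axis starts at 0. For mt-Nd2 the controls lie between 7.55% and 8.61% and the DAAO libraries between 6.41% and 7.31%, and for the other 6 genes the groups overlap.

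Transfer RNA genes had few counts, 29041 over the 12 libraries, and reads on such short genes can come from precursors as well as from mature transfer RNA. The 8 genes on the strand opposite to most messengers held 85.8% of the transfer RNA counts. Whether strand was counted is not known, so these may include reads from the other strand. mt-Tp, the transfer RNA gene for proline printed above, led with 1197 ± 381 CPM per kb (SD, n = 12), followed by mt-Tc for cysteine at 336 ± 177, and 3 genes that did not differ beyond their spread, mt-Te for glutamate at 80.3 ± 39.5, mt-Ts2 for serine at 71.5 ± 45.2 and mt-Tn for asparagine at 70.7 ± 34.6. mt-Tl1, which the 3′ end of mt-Rnr2 and the start of mt-Nd1 enclose, reached 46.8 ± 34.8. It has 75 bases, fewer than a read of 150, so this level cannot be compared with those of its longer neighbours.

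mt-Tp was at 59.3, 93.2 and 126 CPM (lowest, median, highest) in controls and 40.7, 68.7 and 88.4 in DAAO. All 6 DAAO libraries were below the control median, and the groups overlapped (log2 fold change −0.45 ± 0.21, edgeR, adjusted p = 0.475). mt-Te was at 3.05, 7.51 and 11.8 CPM in controls and 2.37, 3.91 and 5.94 in DAAO, again all 6 below the control median (−0.84 ± 0.32, edgeR, adjusted p = 0.347). mt-Tc had −0.28 ± 0.39 and mt-Tn 0.16 ± 0.39 (edgeR, adjusted p = 0.897 and 0.953). mt-Ts2, named for its value, had −1.26 ± 0.46 (edgeR, adjusted p = 0.319) on levels of only 2.47 to 5.96 CPM on average.

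Of the 16 nuclear copies found by similarity, 9 passed the filter, and 0 of them were called by edgeR, also 0 at an unadjusted p under 0.05 (adjusted p from 0.609 to 0.963). These were Gm10222, Gm10925, Gm28437, Gm28438, Gm28439, Gm28661 and Gm29216 on chromosome 1 and Gm13339 and Gm13340 on chromosome 2. Their log2 fold changes were negative in 9 of 9, against 49.6% of all genes. They ran from −0.42 for Gm13340 to −0.10 for Gm10222, and the median was −0.21, against 0.00 for all genes. Reads on near-identical copies can also match the mitochondrial gene, so these values are not independent of those of the members.

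The nuclear genes whose products join or serve the mitochondrial transcripts were taken from lists and read from the same fit. Of the nuclear subunits of complexes I to V, 82 of 82 were tested, 0 were called by edgeR in either direction, and 73 had a log2 fold change below 0, against 49.6% of all genes, the median being −0.21. At an unadjusted p under 0.05 there were 13 of them, against 10.3% of all genes. Without controls 2 and 6, picked after their high mitochondrial shares were seen, 35 of 82 were negative and the median was 0.06. Without control 2 alone 54 of 82 were negative, and without control 6 alone 64. No pair of DAAO libraries was left out to match. By complex, 33 of 37 subunits were negative in complex I, 3 of 4 in complex II, 9 of 9 in complex III, 12 of 14 in complex IV and 16 of 18 in complex V. The medians ran from −0.14 in complex II, which has no mitochondrially encoded subunit, to −0.29 in complex IV.

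The members with the smallest p were Ndufv2 (−0.44 ± 0.16), Ndufs7 (−0.39 ± 0.15) and Ndufc1 (−0.35 ± 0.14) of complex I. In complex II they were Sdhb (−0.28 ± 0.14), Sdha (−0.14 ± 0.11) and Sdhc (−0.13 ± 0.13), and in complex III Uqcrc2 (−0.27 ± 0.10), Uqcrb (−0.40 ± 0.18) and the Rieske protein Uqcrfs1 (−0.19 ± 0.12). In complex V they were Atp5j (−0.42 ± 0.15), Atp5j2 (−0.41 ± 0.17) and Atp5md (−0.60 ± 0.29). In complex IV they were Cox7a1 (−1.25 ± 0.47), Cox8b (−2.33 ± 1.01) and Cox6c (−0.44 ± 0.21). The first 2 of these are isoforms of heart and skeletal muscle, and the 10 tested skeletal muscle markers had a median of −2.55 with 0 called by edgeR; their part in these values was not tested. The adjusted p of these 15 genes ran from 0.308 to 0.812 by edgeR.

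Genes that copy and transcribe mitochondrial DNA had no common direction. Of 21 tested, 10 were negative and 0 were called by edgeR, also 0 at an unadjusted p under 0.05, and the median was 0.03. The smallest p belonged to the helicase Twnk (0.38 ± 0.22, adjusted p = 0.592), Mterf2 (−0.36 ± 0.25, adjusted p = 0.687) and the accessory polymerase subunit Polg2 (0.54 ± 0.38, adjusted p = 0.693). Of 36 genes that process and stabilise mitochondrial RNA, 24 were negative, 0 were called by edgeR, 4 had an unadjusted p under 0.05, a share near the 10.3% of all genes, and the median was −0.08. Mtpap, which adds poly(A) tails to mitochondrial messengers, went from 23.1 ± 1.89 CPM in controls to 16.9 ± 2.82 in DAAO (SD, n = 6), with a log2 fold change of −0.45 ± 0.14 and an adjusted p of 0.198 by edgeR. Fastkd2, a protein of mitochondrial RNA granules that in human cells binds the RNAs corresponding to mt-Rnr2 and mt-Nd6, was at 20.4 to 26.1 CPM in controls and 15.8 to 20.1 in DAAO, and was the 1 gene of these 36 whose groups did not overlap, against 1.45% of all genes (−0.37 ± 0.13, adjusted p = 0.278 by edgeR). Fastkd3 had −0.57 ± 0.21 (adjusted p = 0.311 by edgeR).

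The list of 18 regulators of mitochondrial biogenesis and turnover was also drawn up with earlier results of these data known. Of the 18, 1 was called by edgeR, against 0.753% of all genes. At an unadjusted p under 0.05 there were 4, against 10.3%, and 2 had groups that did not overlap, against 1.45%. The gene called was Esrrg, an orphan nuclear receptor that switches on genes of oxidative metabolism. It was at 25.5 ± 7.05 CPM in controls and 8.74 ± 2.67 in DAAO, without overlap, and fell by 1.54 ± 0.22 on the log2 scale (edgeR, adjusted p = 0.00217). Its relative Esrrb had −1.39 ± 0.34 (edgeR, adjusted p = 0.0816), also without overlap, and their coactivator Ppargc1a −0.66 ± 0.19 (edgeR, adjusted p = 0.156). The other members were spread to both sides, the median of the list being −0.01 and 10 of 18 negative. Esrrg stayed called in all 23 alternatives, among them that without controls 2 and 6, where the mitochondrial genes themselves had a median of −0.02.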

How the data were processed

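Total RNA of DRGs was sequenced as paired reads, per the labels' protocols. The authors deposited 1 table of whole-number read counts per gene, not normalised. Per the submitters' processing notes, the builds were GRCm38 and mm10 and the tools included HISAT2 2.0.5, FastQC and DESeq2 1.20.0. The program that counted the reads, its annotation and its strand setting were not given in the sources used here. All 37 members lie at the same position in GENCODE M21.

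The whole table was fitted: filterByExpr by group (minimum count 10, total 15), TMM factors, edgeR 4.0.16's robust quasi-likelihood test (R 4.3.3), two-sided, Benjamini-Hochberg over 17002 genes, threshold 0.05. CPM are TMM-normalised; SE is the absolute log2 fold change over the square root of F. The step was tested on simulated data. Copies were found with BLAST 2.17.0 among 141730 nuclear transcripts (at least 90% identity over 100 bases).

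The members, lists and tests were chosen with earlier results of these data known. Named were all protein and ribosomal RNA genes, the 4 tested transfer RNA genes with the highest mean counts and any called, called members and the 3 smallest p of each list, and tested copies; others are said to be named for their values. In 3 cases a listed symbol was matched through a RefSeq synonym. Alternatives were other scalings and filters, DESeq2 1.42.0, limma-voom 3.58.1, a replicate block, muscle level as a term, each library left out, and, added after seeing the data, controls 2 and 6 left out, copy counts added and other denominators for mt-Nd2.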

Additional observations from a re-analysis of the deposited data

Results flagged for a closer look

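In 6 of 50 groups of 6 libraries checked, 1 library lay far from the other 5; chance alone gives about 1 in 20 such groups. In 3 cases it was control 2, whose mt-Rnr1 was at 3677 CPM (nearest control 1102), whose mt-Rnr2 was at 5239 CPM (nearest 1765) and whose ribosomal RNA share was 0.868% of all counts (nearest 0.264%); these measures rest on the same counts. Control 6 had 3197 CPM of mt-Nd6 (nearest 1763). Control 5 had a log2 ratio of mt-Rnr2 to mt-Rnr1 of 1.12 (nearest 0.66). DAAO 4 had a log2 ratio of mt-Rnr2 to mt-Nd1 of −2.57 (nearest −1.93).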

How the results depend on the processing

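Over the 23 alternatives, 0 mitochondrial genes were called except by DESeq2, which called 1, mt-Nd2 (adjusted p from 0.0495 to 0.492 over all alternatives). Of 414 recomputed log2 fold changes of the 18 named members, 398 kept their direction and side of the threshold and 15 of genes that were never called changed sign. Without controls 2 and 6 these were mt-Rnr1 (0.25), mt-Rnr2 (0.010), mt-Tc (0.39), mt-Atp6 (0.068) and mt-Co3 (0.16). The others were mt-Tc with limma-voom (0.015), and mt-Co2 with muscle level as a term (−0.027) and with copy counts added (−0.048). With each library left out in turn, mt-Rnr1 ran from −0.67 to 0.14, mt-Tc from −0.47 to 0.047, mt-Tn from −0.0046 to 0.56 and mt-Co2 from −0.071 to 0.34. The ratio of mt-Rnr2 to mt-Rnr1 then ran from −0.22 to −0.094 (adjusted exact permutation p from 0.0390 to 0.130), mt-Rnr2 to mt-Nd1 from −0.19 to 0.20 (0.077 without controls 2 and 6) and mt-Nd6 to mt-Cytb from −0.14 to 0.11. The mitochondrial share differed by −1.52 to −0.798 points.

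List genes called numbered 1 with all libraries, 2 with DESeq2 (Esrrb added), 4 without controls 2 and 6 (Lrpprc, Ppargc1a and Esrrb added), and 1 to 4 with each library left out, the 4 without control 2. Over all genes, calls numbered 128, against 362 with DESeq2, 648 without controls 2 and 6 and 61 to 322 with 1 library left out. The cause of these changes was not tested.

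Whether replicate numbers pair the samples stayed undecided, and the main fit did not pair them. Correlations of same-numbered libraries ran from −0.08 to 0.21, and 3 of 6 controls correlated best with the DAAO library of their own number. With 6 libraries per group this cannot settle the question. The replicate block gave 0 mitochondrial calls, 21 of 26 negative, 187 calls over all genes (128 without the block) and 1 list gene called, and an exact adjusted p of 0.0938 for mt-Rnr2 to mt-Rnr1. Depth did not limit the abundant members, whereas 11 of the 37 had too few counts to be tested.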
